A study of Mus musculus with 8 samples.

Results

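The HSP70 genes of the mouse testis were followed through the first wave of spermatogenesis and into the adult. Members were taken by gene symbol, as Hspa1a, Hspa1b, Hspa1l, Hspa2, Hspa4, Hspa4l, Hspa5, Hspa8 and Hspa9, and all 9 were found among the 23983 genes of the expression table. None of the 9 was at 0 in any library. HSP70 proteins are ATP-driven chaperones that grip and release exposed stretches of unfolded protein. J-domain cochaperones bring them their clients and stimulate ATP hydrolysis, and nucleotide exchange factors, among them the large HSP110-type relatives Hspa4 and Hspa4l, release ADP so that the cycle can start again. The testis is known for HSP70 genes of its own: Hspa2 is needed for male meiosis, Hspa1l is a spermatid gene, and loss of Hspa4l impairs male fertility.

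Pieces of testis, fresh or frozen, came from C57BL/6J mice with no transgene or treatment named for them, at 12, 16 and 24 days after birth (d12, d16 and d24) and from adults, and total RNA was sequenced strand by strand. The series used these stages to find genes and promoters that become active in haploid germ cells, with d12 standing for meiosis, d16 for the start of spermiogenesis and d24 for a later part of it. There was 1 library per stage, so there is no replicate error, no test was made, and stage and library cannot be told apart. The 4 samples of H3K27Ac chromatin immunoprecipitation from the same stages were not analysed here.

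Levels are in FPKM, fragments per kilobase of transcript per 1000000 mapped fragments. The libraries held 8.91 to 23.7 M fragments on genes (M, 1000000), and 1 fragment on a transcript of 1 kb was worth 0.0455 to 0.112 FPKM. All intervals below are exact 95% intervals, Poisson for levels and Clopper-Pearson for ratios. They cover counting error only and not differences between animals. Amplified reads without molecular identifiers are not independent molecules, so the intervals can be too narrow even for counting error. Changes are differences of log2(FPKM + 0.1), later minus earlier stage, and a gene is said to have risen or fallen where this difference was at least 2-fold. The same was counted over 13901 genes whose mean level reached 1 FPKM. In a bulk tissue, fewer cells of a type and less RNA per cell cannot be told apart. Cell composition was not measured, and sums of germ cell markers are set beside the stages. The 6 markers of pachytene spermatocytes summed to 22.2, 657.4, 3543 and 4381 FPKM at d12, d16, d24 and adult. Those of round spermatids, also 6, summed to 3.18, 15.1, 557.5 and 1672 FPKM. Markers of elongating spermatids were higher in the d12 library (13.2 FPKM summed) than at d16 (4.45 FPKM), against the order of the stages.

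Hspa1a, Hspa1b and Hspa1l lie together on chromosome 17 of GRCm38.p6. Hspa1b (34956429 to 34959238) and Hspa1a (34969359 to 34972156), both on the minus strand, are separated by 10120 bp. Hspa1l (34972703 to 34979228) runs the other way, on the plus strand, and its start lies 547 bp from that of Hspa1a. These 3 genes and Hspa2 (chromosome 12, 76404370 to 76406938, plus strand, with a second transcript from 76404176) carry their coding sequence in 1 exon. The coding sequence is spread over 8 exons in Hspa5 (chromosome 2, 34772090 to 34776529, plus strand) and Hspa8 (chromosome 9, 40801276 to 40805202, plus strand), over 17 in Hspa9, and over 19 in both Hspa4 (chromosome 11, 53259814 to 53300479, minus strand) and Hspa4l (chromosome 3, 40745613 to 40790365, plus strand).

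The promoters of 4 genes are printed because these genes behaved differently while standing for the stress, spermatid, meiotic and endoplasmic reticulum branches of the family. They are the bases just before the start site in RefSeq's GRCm38.p6 annotation, written 5′ to 3′ on the gene's strand, with capitals for matched motif letters. Hspa1a is chr17:34972157-34972406 on the minus strand, Hspa1l chr17:34972453-34972702 on the plus strand, Hspa5 chr2:34771840-34772089 on the plus strand, and Hspa2 the last 80 bases before its start, chr12:76404290-76404369 on the plus strand.
Hspa1a: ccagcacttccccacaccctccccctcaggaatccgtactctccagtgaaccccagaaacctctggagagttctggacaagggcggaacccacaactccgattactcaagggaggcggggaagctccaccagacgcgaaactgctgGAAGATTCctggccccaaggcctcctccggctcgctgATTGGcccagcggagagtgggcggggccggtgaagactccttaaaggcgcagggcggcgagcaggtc
Hspa1l: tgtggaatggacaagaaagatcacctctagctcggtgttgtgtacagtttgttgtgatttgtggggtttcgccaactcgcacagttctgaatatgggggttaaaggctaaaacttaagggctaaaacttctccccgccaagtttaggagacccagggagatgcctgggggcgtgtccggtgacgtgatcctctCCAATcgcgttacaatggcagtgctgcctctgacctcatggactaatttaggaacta
Hspa2: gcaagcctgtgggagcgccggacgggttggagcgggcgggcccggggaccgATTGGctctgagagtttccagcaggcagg
Hspa5: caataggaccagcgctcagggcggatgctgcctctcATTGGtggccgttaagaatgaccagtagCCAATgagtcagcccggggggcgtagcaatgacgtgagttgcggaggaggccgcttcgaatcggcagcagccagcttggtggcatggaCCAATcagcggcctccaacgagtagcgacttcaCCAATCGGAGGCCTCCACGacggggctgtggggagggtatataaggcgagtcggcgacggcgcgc

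Promoters were on hand for 7 of the 9 genes, and 250 bases before the start were searched in each and in 32851 promoters in all. For Hspa2 the start used was 76404370. Its 80 printed bases lie downstream of its second start, 76404176, whose promoter was not searched on its own. The paired heat shock unit GAANNTTC was found in Hspa1a and Hspa1b, 104 to 97 bases before the start in both, and in 6.69% of all promoters. The other pairing, TTCNNGAA, was in none of the 7 and in 7.17% of all, and a run of 3 units was in none of the 7 and in 0.466% of all. A CCAAT box, read on both strands, was present in 5 of the 7 and in 33.8% of all. Hspa5 had 4 of them, and Hspa1a, Hspa1b, Hspa1l and Hspa2 had 1 each. The endoplasmic reticulum stress element, which overlaps the CCAAT box nearest the start, was found in Hspa5 and in 0.113% of all promoters. TATAAA, read on the gene's strand, was in none of the 7 and in 7.59% of all, and TGACGTCA, read on both strands, in none of the 7 and in 1.55% of all. The promoters of Hspa1a and Hspa1b differed at 3 of 250 bases, C207T, T204C and T2G, with positions counted in bases before the start and the Hspa1a base first.

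How alike the genes are bears on how well their reads can be assigned. The coding sequences of Hspa1a and Hspa1b were 99.4% identical. Hspa1l was 82.9% identical to Hspa1a, Hspa2 was 78.3% identical to Hspa1a and 73.9% to Hspa8, and the HSP110-type pair Hspa4 and Hspa4l was 66.8% identical to each other. Of all 50-base stretches, the read length used, 64.1% in the Hspa1a transcript and 62.2% in the Hspa1b transcript recur exactly in another member, so the split between these paralogs is uncertain, and their sum is given beside them. In Hspa1l 9.81% recur in another member. In Hspa9 8.72% recur elsewhere in the genome. For Hspa8, 86.5% of the stretches recur elsewhere in the genome, which holds 5 near copies of its transcript, so its level is uncertain too. Of the genes overlapping those copies, 1700016L04Rik was in the table, at 0.877, 1.05, 4.35 and 3.82 FPKM at d12, d16, d24 and adult. The annotation also has 3 genes on the same strand that overlap Hspa8 and 2 that overlap Hspa9. No stretch of Hspa2, Hspa4, Hspa4l or Hspa5 recurs elsewhere.

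**Figure D1:**
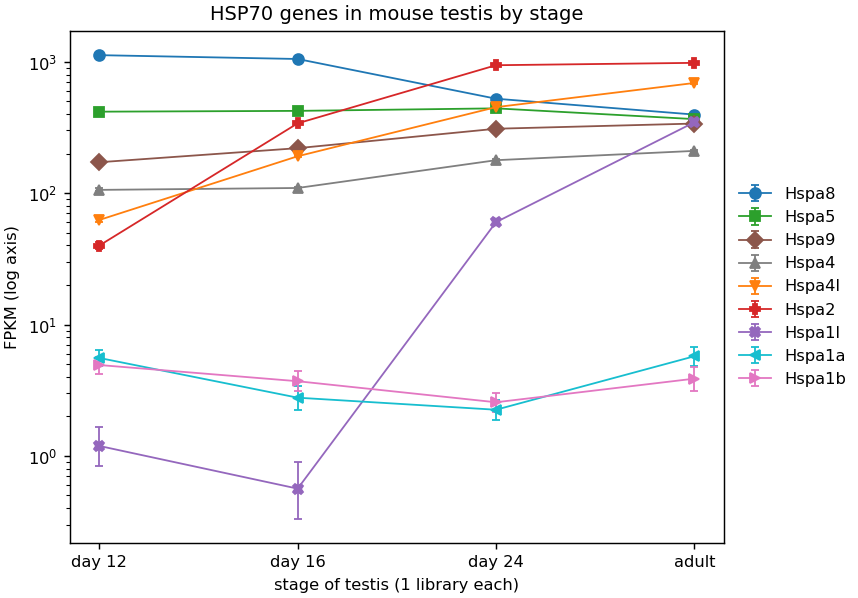
FPKM of the 9 HSP70 genes (log axis) in the d12, d16, d24 and adult testis, 1 library per stage, with bars for the exact 95% Poisson interval and lines joining the stages of a gene. Hspa2, Hspa4l and Hspa1l climb while Hspa8 declines, and Hspa1a and Hspa1b stay between 2.24 and 5.73 FPKM.

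Hspa2 encodes the HSP70 of spermatocytes, which takes part in taking apart the synaptonemal complex and in assembling the kinase of the meiotic division. Its level was 39.9 FPKM at d12 (37.8 to 42.2), 339.9 at d16 (333.5 to 346.4), 941.3 at d24 (933.3 to 949.4), then 981.2 in the adult (968.4 to 994.2). The intervals of the 4 libraries did not overlap, but d24 and adult lay within 1.04-fold of each other. Hspa2 thus rose 8.52-fold from d12 to d16 (8.03 to 9.03) and 2.77-fold from d16 to d24 (2.71 to 2.83). The second of these did not reach 2-fold with libraries scaled to the same sum (0.85 on the log2 scale) or by the upper quartile (0.94). On the log2 scale its change from d12 to adult was 4.62, of which 66.9% lay between d12 and d16. The step from d24 to adult was 0.06 as deposited and turned to -0.42 with the same sum and -0.20 with the upper quartile. Only 3.42% of the 13901 genes had a larger change than Hspa2 in that first step, whereas 12.99% had a larger one from d12 to adult. Among all genes of the table, ranked from the highest FPKM, Hspa2 moved from place 1365 at d12 to 90 at d16, 31 at d24, then 53 in the adult.

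Spermatocyte markers moved with Hspa2, and their part in its change was not tested. The pachytene markers summed to 0.507% of their adult level at d12, 15.0% at d16 and 80.9% at d24, and Hspa2 stood at 4.07%, 34.6% and 95.9% of its own. Ldhc made up most of that sum, with 2769 FPKM of 4381 in the adult, and the 6 markers did not share one course. Piwil1, with 2.90, 90.0, 193.5 and 157.9 FPKM, was nearer to its adult level at d16 than Hspa2 was, and Piwil1, Clgn and Ccna1 were higher at d24 than in the adult. The 6 markers of early meiotic cells had no common peak: Sycp1, Sycp3 and Meiob were highest at d16, Dmc1 and Prdm9 at d12 and Spo11 in the adult. The genes most like Hspa2 among 6967 whose mean reached 10 FPKM, by the root mean square difference of centred log2 values over the 4 stages, were Syngr4 (0.08), Fam228a (0.08) and Dis3l (0.10). Dis3l ran from 5.72 to 46.7, 153.8 and 156.7 FPKM, a level well under that of Hspa2 with the same order of stages.

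Hspa1l, the spermatid member, was the last to appear and changed most. Its level was 1.19 FPKM at d12 (0.834 to 1.65), 0.563 at d16 (0.328 to 0.902), 60.1 at d24 (58.1 to 62.2), then 346.2 in the adult (338.4 to 354.2). In both early libraries Hspa1l was the lowest member of the family. Its adult level was far above its own at the other stages, but below those of Hspa2, Hspa4l, Hspa8 and Hspa5 in the adult. These values rest on 36, 17, 3190 and 7456 fragments. Hspa1l rose 106.8-fold from d16 to d24 (66.6 to 183.5) and 5.76-fold from d24 to adult (5.52 to 6.00). The change of 6.50 from d16 to d24 on the log2 scale was exceeded by 2.47% of the 13901 genes, and that of 2.52 from d24 to adult by 1.37%.

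The low levels of Hspa1l at d12 and d16 do not follow the order of the stages. The d16 level was 0.473 of that at d12 (0.249 to 0.864), a log2 difference of -0.96 that did not reach 2-fold on the scale with the added 0.1 FPKM. Of the 6 markers of elongating spermatids, 4 also fell from d12 to d16, and the part of such RNA in the d12 value of Hspa1l was not tested. At d24, Hspa1l was at 17.4% of its adult level, against 33.3% for the round spermatid sum and 8.95% for the elongating spermatid sum. Neither sum stands for each of its markers. From d24 to adult the log2 change was 2.50 in Odf1 and 2.52 in Akap4, both elongating spermatid markers, as in Hspa1l. It ran from 2.83 to 4.13 in the other elongating markers and from 0.35 to 2.35 in the round ones. Actrt3 (0.14), Fbxo39 (0.15) and 1700020G17Rik (0.16) were the genes most like Hspa1l by the same root mean square measure. In the 3 of them the level lay between 0.0467 and 0.131 FPKM at d12 and was listed at 0 at d16. It lay between 7.56 and 9.85 FPKM at d24 and between 40.5 and 45.8 FPKM in the adult. Hspa1l exceeded each of them in every library.

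Hspa1a and Hspa1b, the stress-inducible genes next to Hspa1l, stayed near the bottom of the family throughout. Hspa1a had 5.56 FPKM at d12 (4.81 to 6.40), 2.77 at d16 (2.25 to 3.38), 2.24 at d24 (1.89 to 2.65), then 5.73 in the adult (4.83 to 6.75). Hspa1b had 4.92 FPKM at d12 (4.21 to 5.71), 3.70 at d16 (3.09 to 4.39), 2.56 at d24 (2.18 to 2.99), then 3.87 in the adult (3.14 to 4.72). Both were lowest at d24, and for both the intervals at d12 and in the adult overlapped as deposited. With libraries scaled to the same sum, the log2 change from d12 to adult was -1.17 in Hspa1a and -1.55 in Hspa1b. It was -0.87 and -1.25 with the upper quartile, and 0.07 and -0.31 with the median ratio. Hspa1a rose 2.55-fold from d24 to adult (2.01 to 3.25), though not past 2-fold with libraries scaled to the same sum (0.86 on the log2 scale), while Hspa1b had a ratio of 1.51 in that step (1.16 to 1.96).

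Their sum, which does not depend on how reads were split between them, was 10.5, 6.47, 4.80 and 9.60 FPKM at d12, d16, d24 and adult. It can still depend on reads shared with Hspa1l, since 9.81% of the stretches of Hspa1l recur in another member. In the adult the sum rests on 240 fragments, beside 7456 for Hspa1l, and the part of shared reads was not tested. Between d24 and adult the sum came to just under 2-fold, so counted as 1 gene the pair did not rise in that step. Hspa1l had 0.114 times the sum of its 2 neighbours at d12, 0.0870 times at d16, 12.5 times at d24, then 36.1 times in the adult. The neighbours thus changed places in level although the start sites of Hspa1a and Hspa1l are 547 bp apart. As a sign of stress during collection, 8 immediate early and handling genes were summed, and they came to 16.3, 10.9, 7.78 and 6.47 FPKM. That sum went down at each stage, while the sum of Hspa1a and Hspa1b was lowest at d24 and at 9.60 FPKM in the adult. The part of handling stress in the levels of Hspa1a and Hspa1b was not tested. Jun held 8.62 of the 16.3 FPKM at d12, and only 3 of the 8 genes had a mean of at least 1 FPKM. The 8 did not share one direction, with log2 changes from d12 to adult between -3.52 in Atf3 and 1.41 in Fosb.

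**Figure D2:**
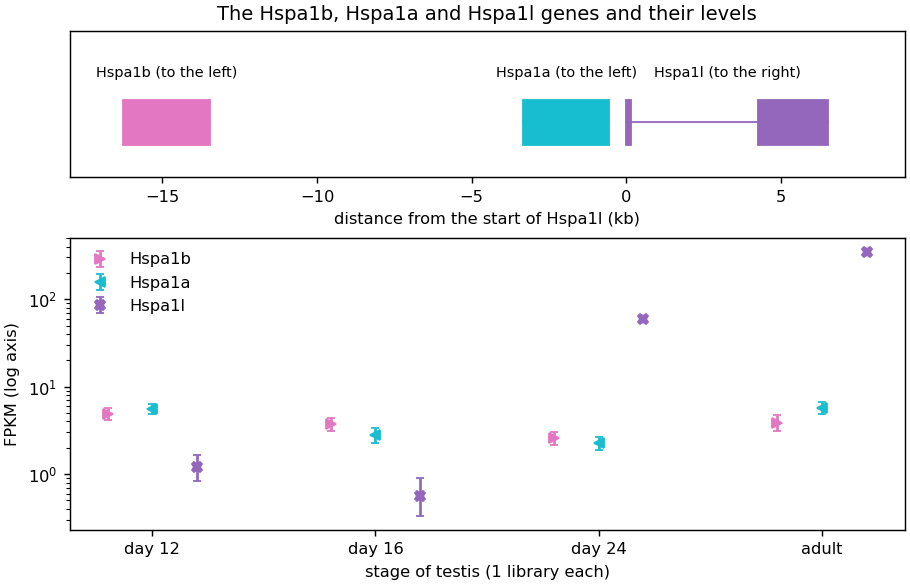
Top, exons (boxes) of Hspa1b, Hspa1a and Hspa1l in kb from the start of Hspa1l, with the direction of transcription in words, and bottom, FPKM of the 3 genes (log axis) by stage with exact 95% Poisson intervals, 1 library per stage. Hspa1l is the lowest of the 3 at d12 and d16 and the highest at d24 and in the adult, at 60.1 and 346.2 FPKM.

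Hspa8, the constitutive HSP70 of the cytosol, which folds new proteins and strips clathrin from vesicles, went the opposite way to Hspa2. It had 1123 FPKM at d12 (1110 to 1136), 1050 at d16 (1037 to 1062), 523.4 at d24 (516.8 to 530.1), then 396.3 in the adult (387.3 to 405.5). It was the most abundant member at d12 and d16 and was passed by Hspa2 at d24. From d16 to d24 its ratio was 0.498 (0.490 to 0.507), just past the 2-fold limit, which was not reached when libraries were scaled by their median ratio. From d12 to adult its ratio was 0.353 (0.344 to 0.362), which passed the limit under every scaling tried. In rank from the highest of all genes it went from place 7 at d12 to 8, 86 and 261. Summed markers of Sertoli cells went from 792.0 to 491.6 FPKM between d12 and adult, with 460.6 FPKM at d24. Clu held 706.7 FPKM of that sum at d12. Its log2 change to the adult was -0.63, and those of the other Sertoli markers ran from -5.01 in Amh to -0.28 in Rhox5. Summed markers of spermatogonia went from 198.0 to 37.8 FPKM. Stra8 and Dmrt1 held 86.4 and 77.4 FPKM of that sum at d12. Of the 6 spermatogonial markers 5 fell from d12 to adult, and Gfra1 went the other way, from 1.20 to 2.41 FPKM. The part of these cells in the decline of Hspa8 was not tested.

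A ratio of 2 genes within a library does not depend on how libraries are scaled to each other. Hspa2 had 0.0355 times the FPKM of Hspa8 at d12 (0.0336 to 0.0376), 0.324 times at d16 (0.317 to 0.331), 1.80 times at d24 (1.77 to 1.83), then 2.48 times in the adult (2.41 to 2.54). The order of the pair turned between d16 and d24, and the intervals of these stages did not overlap. The 2 germ cell members also changed against each other. Hspa1l stood at 0.0298 times Hspa2 at d12 (0.0208 to 0.0415), 0.00166 times at d16, 0.0639 times at d24, then 0.353 times in the adult, so that the ratio was lowest at d16 and Hspa2 was the higher of the pair in each library.

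Hspa5, known as BiP, is the HSP70 of the endoplasmic reticulum and a regulator of the unfolded protein response. As deposited, its level varied little, with 417.0 FPKM at d12 (410.0 to 424.1), 422.9 at d16 (415.8 to 430.0), 441.9 at d24 (436.5 to 447.5), then 366.0 in the adult (358.3 to 374.0). The d12 and d16 intervals overlapped, and the highest stage was 1.21 times the lowest. No step of Hspa5 reached 2-fold as deposited, and its sign from d12 to d16 and from d16 to d24 turned under other scalings. From d12 to adult its log2 change was -0.19 as deposited, -1.40 with libraries scaled to the same sum, -1.12 with the upper quartile and -0.16 with the median ratio, so that it fell past 2-fold under 2 of the 3 scalings. Of 13 chaperones and stress genes of the same compartment, 4 rose from d12 to adult, 3 fell and 6 did neither. Of all genes 35.7% rose and 23.1% fell. With libraries scaled to the same sum 3 of the 13 rose and 6 fell, beside 23.2% and 50.1% of all genes. The risers as deposited included Ddit3, the stress-induced transcription factor CHOP, at 19.4, 49.0, 141.3 and 180.8 FPKM. Creld2, also a riser, had 43.4, 64.0, 155.8 and 210.4 FPKM. The other risers named by the rule were Herpud1, a degradation factor of the compartment, from 5.04 to 41.6 FPKM, and Sdf2l1 from 10.6 to 42.8 FPKM. Hspa5 also overlaps 1 gene on the opposite strand, Rabepk, which a strand-specific library keeps apart.

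Hspa9, or mortalin, is the HSP70 of the mitochondrial matrix and the motor that pulls proteins through the inner membrane. It had 171.9 FPKM at d12 (167.7 to 176.1), 219.9 at d16 (215.3 to 224.7), 309.2 at d24 (305.0 to 313.4), then 338.6 in the adult (331.7 to 345.6). The values went up at each stage, but the whole change, 1.97-fold (1.91 to 2.03), stayed under the 2-fold limit. It just passed the limit with median-ratio scaling, and its log2 value was 0.05 with the upper quartile and -0.24 with libraries scaled to the same sum. Of 8 mitochondrial chaperones and import motor genes, 3 rose, 3 fell and 2 did neither from d12 to adult. Among all genes 35.7% rose and 23.1% fell. With libraries scaled to the same sum 2 of the 8 rose and 5 fell, beside 23.2% and 50.1% of all genes. Hspd1, the matrix chaperonin that folds proteins after Hspa9, fell from 110.4 to 79.5, 39.8 and 41.2 FPKM, and its partner Hspe1 from 151.3 to 95.5, 51.7 and 48.6 FPKM. Pam16, a regulator of the import motor, rose from 9.98 to 25.4, 88.4 and 110.7 FPKM, and Clpx, the unfoldase of the matrix protease, from 35.2 to 171.2 FPKM between d12 and adult. The genes around Hspa9 thus did not share one direction.

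Hspa4 and Hspa4l are HSP110-type proteins, which serve the HSP70 proteins as nucleotide exchange factors. Hspa4l had 62.5 FPKM at d12 (60.2 to 64.9), 190.9 at d16 (186.8 to 195.0), 451.4 at d24 (446.7 to 456.1), then 689.6 in the adult (680.5 to 698.8). It rose 3.05-fold from d12 to d16 (2.93 to 3.19) and 2.36-fold from d16 to d24 (2.31 to 2.42), and its ratio from d24 to adult was 1.53. The rise from d16 to d24 was under 2-fold with libraries scaled to the same sum (0.62 on the log2 scale) or by the upper quartile (0.71). From d12 to adult it rose by 3.46 on the log2 scale, an interval of 10.6- to 11.5-fold. As deposited, the 3 steps held 46.5%, 35.9% and 17.7% of the total log2 change of Hspa4l. With libraries scaled to the same sum, the log2 changes were 1.49, 0.62 and 0.13 out of 2.25, so that the later steps weighed less. Its nearest genes by the root mean square measure were B9d1 (0.10), 4930503L19Rik (0.11) and Psmc3ip (0.12). Psmc3ip, a cofactor of meiotic recombination, ran at 30.0, 114.3, 239.9 and 341.0 FPKM.

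Hspa4 had 105.9 FPKM at d12 (103.2 to 108.6), 109.5 at d16 (106.8 to 112.2), 178.1 at d24 (175.6 to 180.8), then 209.7 in the adult (205.3 to 214.2). The d12 and d16 intervals overlapped, and the change from d12 to adult, 1.98-fold (1.92 to 2.05), stayed just under the limit. It too passed the limit with median-ratio scaling, against 0.06 on the log2 scale with the upper quartile and -0.23 with libraries scaled to the same sum. Within a library, Hspa4l had 0.590 times the FPKM of Hspa4 at d12 (0.564 to 0.618), 1.74 times at d16, 2.53 times at d24, then 3.29 times in the adult (3.21 to 3.37). The order of this pair had already turned at d16, a stage before that of Hspa2 and Hspa8. By the same measure of likeness, Hspa4 and Hspa9 were the pair of members nearest to each other (0.13), Hspa2 and Hspa4l lay 0.66 apart, and Hspa1l and Hspa8 were farthest (4.40).

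Summed over the 9 genes, HSP70 transcripts came to 1932, 2340, 2910 and 3337 FPKM at d12, d16, d24 and adult. These sums were 0.681%, 0.760%, 0.616% and 0.506% of all FPKM in the libraries, so in relative terms the family was highest at d16. What changed was its composition. Hspa8 and Hspa5 made up 79.7% of the sum at d12, 62.9% at d16, 33.2% at d24, then 22.8% in the adult. Hspa2, Hspa4l and Hspa1l made up 5.36%, 22.7%, 49.9% and 60.4%. Hspa2 alone went from 2.07% to 14.5%, 32.3% and 29.4%, Hspa4l from 3.24% to 8.16%, 15.5% and 20.7%, and Hspa1l from 0.0616% to 0.0241%, 2.07% and 10.4%. Hspa2 held its largest share at d24, and the other 2 germ cell members held theirs in the adult. Hspa9 stayed between 8.90% and 10.6% and Hspa4 between 4.68% and 6.28%.

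**Figure D3:**
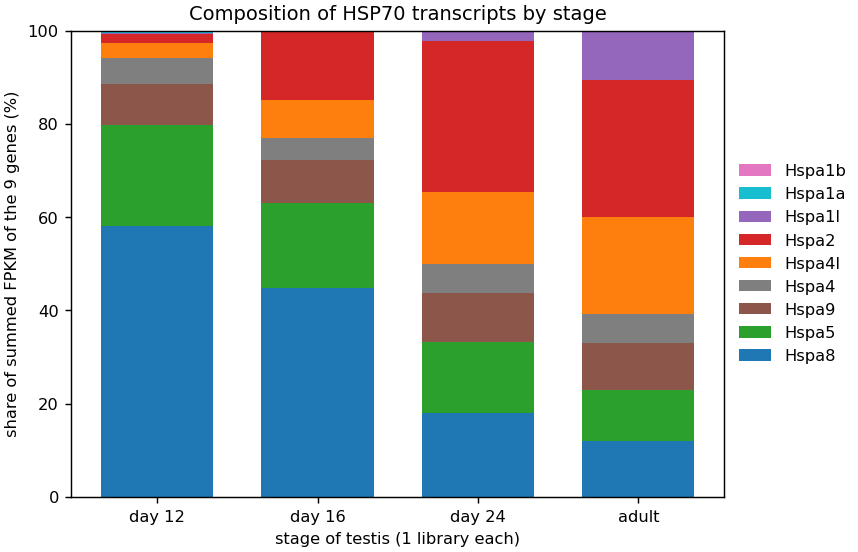
Share of each gene in the summed FPKM of the 9 HSP70 genes (%), stacked, in the d12, d16, d24 and adult testis, 1 library per stage. Hspa8 shrinks from 58.1% to 11.9%, and Hspa2, Hspa4l and Hspa1l together grow from 5.36% to 60.4%.

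Read against all genes, the members' counts were as follows. From d12 to d16, 2 of the 9 rose, Hspa2 and Hspa4l, where 12.6% of the 13901 genes did, and 0 fell, where 3.67% did. Hspa1a and Hspa1l lay just inside the limit in that step, at -0.98 and -0.96, and Hspa1a passed it under each of the 3 other scalings. Hspa1l passed it with libraries scaled to the same sum (-1.16) or by the upper quartile (-1.12), but not by the median ratio (-0.98). Both passed it with a pseudocount of 0.01 FPKM. From d16 to d24, 3 rose, Hspa1l, Hspa2 and Hspa4l, against 27.5% of all genes, and 1 fell, Hspa8, against 8.45%. From d24 to adult, 2 rose, Hspa1a and Hspa1l, against 11.4%, and 0 fell, against 2.2%. From d12 to adult, 3 rose, Hspa1l, Hspa2 and Hspa4l, against 35.7%, and 1 fell, Hspa8, against 23.1%. With 9 genes, a single gene makes up 11.1% of the family, so these counts do not stand apart from the shares over all genes. The median log2 change of the members was 0.02, 0.49, 0.24 and 0.98 in these 4 comparisons, beside 0.00, 0.13, -0.02 and 0.20 over all genes.

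These directions depend in part on how libraries are set to each other. With each library scaled to the same FPKM sum, all values from d12 to adult were lower by 1.22 on the log2 scale. The members' median was then -0.24 and that of all genes -1.01, and of all genes 23.2% rose and 50.1% fell. Hspa2 and Hspa4l did not reach 2-fold from d16 to d24 under that scaling or by the upper quartile, while Hspa1l rose in that step under each one tried.

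**Figure D4:**
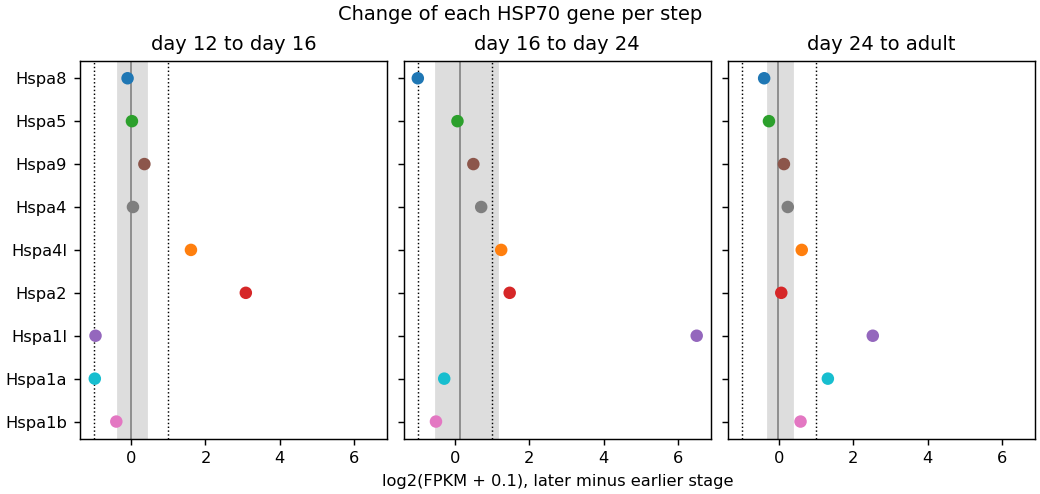
Change of each HSP70 gene, as log2(FPKM + 0.1) of the later minus the earlier stage, in 3 steps, with dotted lines at 2-fold, a grey band for the middle 50% of the 13901 genes and a grey line for their median, 1 library per stage. Hspa2 and Hspa4l stand out from d12 to d16, and Hspa1l from d16 to d24 and from d24 to adult.

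Among all 13901 genes, 35.7% rose and 23.1% fell from d12 to adult, and the lists of partners below are read beside these shares. List counts with libraries scaled to the same sum are read beside 23.2% that rose and 50.1% that fell. Of 6 other relatives, Hspa12a, Hspa12b, Hspa13, Hspa14, Hsph1 and Hyou1, 1 rose from d12 to adult and 0 fell, with a median change of 0.42. With libraries scaled to the same sum the median was -0.76, and 0 rose and 3 fell. Hsph1, the third HSP110-type protein of the cytosol, was the riser, from 14.4 to 33.7 FPKM, a level well under those of Hspa4 and Hspa4l. Hyou1, the HSP110-type partner of Hspa5, had 31.8 FPKM at d12, 52.6 at d16 and 52.0 in the adult, and was highest at d24, 0.60 above d16 on the log2 scale. Hspa14, a ribosome-bound relative, went from 44.0 to 22.0 FPKM, a change of -0.99, and Hspa13 from 11.7 to 12.6 FPKM.

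Among the J-domain cochaperones of classes A and B, which include the main partners of the cytosolic HSP70 proteins, 13 of 17 rose from d12 to adult and 0 fell, with a median change of 2.39. With libraries scaled to the same sum, 10 rose and 1 fell, and the median was 1.18. Most did so in the step in which Hspa1l appeared, with 11 of the 17 rising from d16 to d24, beside 27.5% of all genes, and 3 from d12 to d16, beside 12.6%. Dnajb3, a testis J protein, had 1.88, 13.8, 194.1 and 386.5 FPKM. Dnajb7 had 0.135, 1.28, 71.6 and 331.5 FPKM, and Dnajb8 0.161 FPKM at d12, a listed 0 at d16, then 25.7 and 264.1. Dnajb13, a part of the sperm flagellum's radial spokes, had 0.140, 3.99, 86.1 and 168.5 FPKM.

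The class C proteins carry a J domain in otherwise varied proteins, and 13 of 31 rose from d12 to adult, 1 fell and 17 did neither, with a median change of 0.56. With libraries scaled to the same sum, 6 rose and 15 fell, and the median was -0.65. Dnajc5b, a relative of the cysteine string protein that works with Hspa8 at synapses, had 0.256 FPKM at d12, a listed 0 at d16, then 151.8 and 657.2 FPKM. Its relative Dnajc5g had 25.1, 102.9 and 132.4 FPKM from d16 on, after a rise of 3.46 on the log2 scale from d12. Dnajc15, a protein of the mitochondrial inner membrane linked to the import motor of Hspa9, had 58.7, 137.5, 359.3 and 522.6 FPKM, and Dnajc27 went from 4.34 to 48.7 FPKM between d12 and adult.

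Of 10 nucleotide exchange factors, leaving aside the HSP110-type genes, 5 rose from d12 to adult, 0 fell and 5 did neither, with a median change of 1.51. With libraries scaled to the same sum, 3 rose and 3 fell, and the median was 0.31. Bag5 rose from 13.4 to 28.2, 251.6 and 493.5 FPKM. Bag6, which is known to stabilise HSPA2 in the testis, rose from 15.1 to 24.2, 95.6 and 109.0 FPKM, mostly after the d12 to d16 step in which Hspa2 gained most. Bag3 had 3.54 FPKM at d12 and 24.8 in the adult. Sil1, the exchange factor for Hspa5, rose from 33.1 to 153.9 FPKM although Hspa5 itself did not rise.

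**Figure D5:**
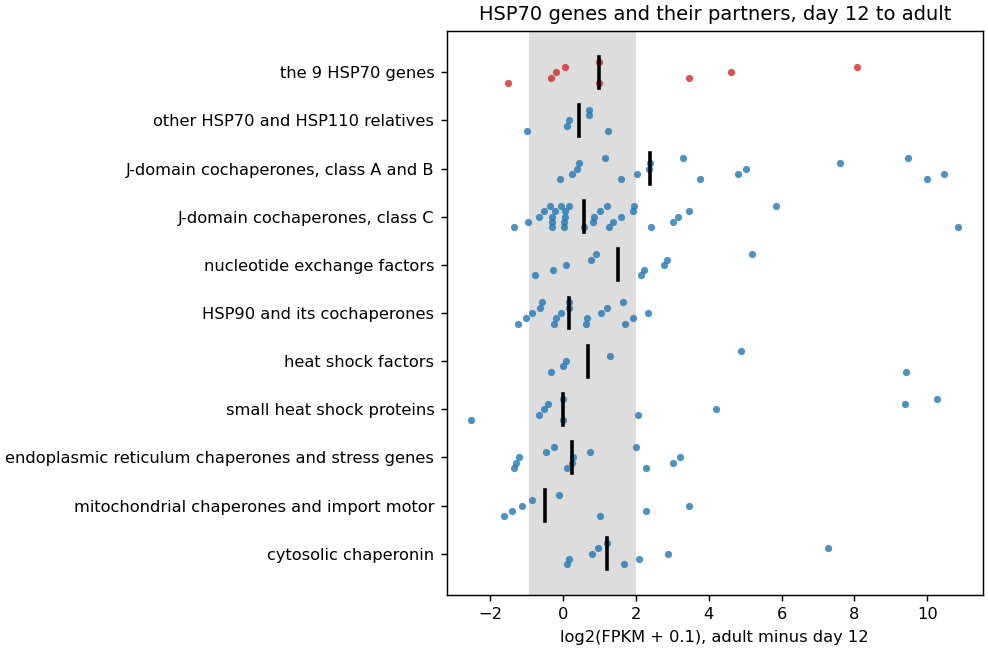
Change from d12 to adult, as log2(FPKM + 0.1) of adult minus d12, for the 9 HSP70 genes (red) and for 10 lists of relatives, cochaperones and other chaperones (blue), 1 point per gene with a black bar at each list's median and a grey band for the middle 50% of the 13901 genes. The J-domain list of classes A and B has the highest median, 2.39, and the mitochondrial list the lowest, -0.49.

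Of 5 genes tied to the known roles of HSPA2 in meiosis and in spermatids, 3 rose from d12 to adult, 0 fell and 2 did neither, with a median change of 2.84. The risers were Bag6 and the transition protein genes Tnp1 and Tnp2, which replace histones in spermatids and went from 2.81 and 1.74 FPKM at d12 to 4147 and 3997 FPKM in the adult. Tnp1 and Tnp2 are also markers of elongating spermatids in the sums above. Ccnb1, the cyclin of the kinase that HSPA2 helps to assemble, had 25.4, 18.0, 37.8 and 36.8 FPKM, and did not rise in the step in which Hspa2 rose 8.52-fold.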

How the data were processed

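Total RNA from pieces of testis (4 libraries, 1 per stage, paired reads of 50 bases) was mapped by the authors to GRCm38 with TopHat2 2.1.0 and Bowtie 1.1.2, keeping 1 alignment per read, and FPKM values per RefSeq gene were computed with Cuffdiff of Cufflinks 2.2.1, with correction of sequence bias and of multiply mapped reads. The deposited FPKM table was used as it stands. Multiply mapped reads bear most on Hspa1a, Hspa1b and Hspa8 and less on Hspa1l and Hspa9. Stages were taken from the sample labels. The 9 genes, the gene lists and the rules for naming genes were chosen with earlier results of these data known. From each list, up to 4 genes with the largest change from d12 to adult and at least 10 FPKM in some library were named.

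Changes were taken on log2(FPKM + 0.1). Whole fragments were recovered from FPKM and transcript lengths of the GRCm38.p6 annotation, and 91.8% to 92.5% of values up to 20 fragments came within 0.05 of a whole number. With 1 library per stage no test was made. Repeated stretches were found with blastn 2.17.0, and other steps used Python 3.11.15, numpy 2.4.6, pandas 2.3.3, scipy 1.17.1 and Biopython 1.88. Procedures were tested on simulated data. Alternatives were other pseudocounts, fold limits, scalings between libraries and sets of genes in the sums.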

Additional observations from a re-analysis of the deposited data

How the results depend on the processing

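No paired analysis was possible because each stage had 1 library, and for the same reason no library could be left out. Of the members' changes, 10 of 36 turned sign under at least 1 of 3 scalings, none of them past 2-fold as deposited, and no pseudocount turned one. Of the counts of members past the limit, 0 fell from d12 to d16 as reported, and 2 did with a pseudocount of 0.01 FPKM, with libraries scaled to the same sum or upper quartile or at a 1.5-fold limit, and 1 with median-ratio scaling. From d16 to d24, where 3 rose, 1 did with the same sum, the upper quartile or a 3-fold limit, and where 1 fell, 2 did with the same sum or upper quartile and 0 with the median ratio or a 3-fold limit. From d24 to adult, where 2 rose, 1 did with the same sum, a 3-fold limit or Hspa1a and Hspa1b summed. From d12 to adult, where 3 rose, 5 did with the median ratio or a 1.5-fold limit, and where 1 fell, 4 did with the same sum, 3 with the upper quartile and 0 at a 3-fold limit. The share of Hspa2 at d12, d16, d24 and adult was 3.40%, 24.3%, 61.5% and 56.6% of the 5 cytosolic members. With the 6 other relatives in the sum it was 13.8% at d16, 30.7% at d24 and 28.3% in the adult. Without Hspa8, a sum chosen after seeing the data, it was 4.93%, 26.3%, 39.4% and 33.4%. The cause of these shifts is in the construction of each alternative. Fragments recovered from FPKM limit Hspa1l at d12 and d16 most, and differences between animals of a stage could not be measured.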

Other observations

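The HSP90 genes, whose proteins take clients over from HSP70, changed places in the testis. Hsp90aa1 had 757.1, 1813, 2705 and 2863 FPKM at d12, d16, d24 and adult. Hsp90ab1, named after its values were seen, had 1049, 865.8, 558.7 and 442.3 FPKM. Within a library, Hsp90aa1 had 0.722, 2.09, 4.84 and 6.47 times the FPKM of Hsp90ab1, so that their order turned between d12 and d16, before that of Hspa2 and Hspa8. From d12 to adult, 35.7% of the 13901 genes rose and 23.1% fell. With libraries scaled to the same sum these shares were 23.2% and 50.1%. Of 18 HSP90 genes and cochaperones, 6 rose from d12 to adult, 2 fell and 10 did neither, with a median log2 change of 0.15 that became -1.06, with 1 rising and 10 falling, when libraries were scaled to the same sum. St13, a cochaperone of HSP70 in the hand-over to HSP90, went from 143.9 to 465.0 FPKM, Fkbp4 from 118.0 to 366.1 FPKM and Ttc4 from 14.7 to 74.4 FPKM.

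Among 6 heat shock factors, 3 rose from d12 to adult and 0 fell, with a median of 0.68 (0.04, with 2 rising and 2 falling, when libraries were scaled to the same sum). Hsf5, a factor of spermatocytes, had 5.17, 52.5, 155.6 and 154.1 FPKM, with most of its change in the first step, as in Hspa2. Hsfy2 had 0.114 FPKM at d12, a listed 0 at d16, then 52.9 and 146.2 FPKM, and Hsf2 had 14.1 FPKM at d12 and 34.5 in the adult. Hsf1, the factor of the stress response, named after its values were seen, had 4.15, 5.55, 8.28 and 4.39 FPKM. Of 10 small heat shock proteins, 4 rose, 1 fell and 5 did neither (3 rose and 4 fell with libraries scaled to the same sum). Their median change was 0. Hspb9, a testis member, went from 0.550 to 433.3 FPKM, Odf1, a protein of the sperm tail's outer dense fibres, from 0.361 to 565.1 FPKM and Hspb6 from 3.50 to 14.7 FPKM, and Hspb1 had 12.6 FPKM at d12 and 7.82 in the adult. Of 9 genes of the cytosolic chaperonin, which folds actin and tubulin, 5 rose and 0 fell, with a median of 1.20 (-0.02, with 2 rising and 2 falling, when libraries were scaled to the same sum). Cct6b, its testis subunit, went from 1.15 to 19.3, 151.5 and 192.0 FPKM. Tcp1 went from 162.1 to 1185 FPKM, Cct7 from 52.2 to 220.0 FPKM and Cct4 from 36.0 to 114.2 FPKM.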
